A study of Homo sapiens with 10 samples.

Results

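BRAF, ARAF, NRAS, HRAS, MAP2K1, MAP2K2 and MAPK3 are 7 genes of the kinase cascade that encorafenib and binimetinib inhibit, and they were chosen by gene symbol from the 57955 genes listed for every library. All 7 passed the filter on low counts that left 17287 genes for testing. The material was 5 BRAF-mutant human melanoma cell lines, each as the original, drug-sensitive line and as the resistant line derived from it, with 1 mRNA library per line and state. WM983A, WM278 and WM902B came from primary tumours, and WM983B and WM1617 from metastases. WM983A and WM983B came from the same patient, as did WM278 and WM1617, so the 5 lines stand for 3 patients. Resistance was raised by growth in both drugs together, starting at 1 nM and ending, after 3 to 5 months, at 200 nM, the dose in which the resistant lines were then kept. For the sensitive lines no drug is named, so acquired resistance and the presence of the drugs cannot be told apart. All lines grew in RPMI-1640 with 10% foetal bovine serum.

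RAS proteins are small GTPases at the cell membrane that switch on when growth factor receptors are active. Active RAS recruits RAF kinases, RAF phosphorylates the kinases MEK1 and MEK2, and these phosphorylate the ERK kinases, which drive proliferation genes and also genes that feed back on the cascade. Many melanomas carry a mutation of BRAF that makes the kinase active without RAS. Encorafenib binds mutant BRAF and binimetinib binds MEK1 and MEK2. Gains of BRAF copies, alternative BRAF splicing and mutations of RAS or MEK genes are known routes around such drugs. Gene-level counts show neither a mutation nor a splice form, and protein activity and gene copy number were not measured in these libraries.

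The resistant WM983A library had its highest correlation across genes (Pearson's r = 0.84) with the sensitive WM902B library rather than with its own sensitive library (r = 0.83), while r within the other lines was 0.89 to 0.98. SOX10, a transcription factor of the melanocyte lineage, lay between 307 and 344 CPM (counts divided by library size, after scaling by the TMM method) in the sensitive libraries. In the resistant libraries it was at 6.47 CPM in WM983A, 12.6 CPM in WM983B and 0.66 CPM in WM902B, against 274 CPM in WM278 and 338 CPM in WM1617. Other melanocyte markers did not all follow SOX10. MITF was at 10.7 CPM in sensitive and 14.5 CPM in resistant WM278, against 264 to 627 CPM in the other sensitive lines. In WM278 PMEL was at 4.42 and 4.29 CPM, but S100B at 92.8 and 626 CPM. Resistant WM902B held MITF at 220 CPM. The summed level of the 8 melanocyte markers ranged from 429 to 4501 CPM in the sensitive and from 89.8 to 4429 CPM in the resistant libraries. The 2 epithelial markers summed to 0.79 CPM at most in the sensitive libraries and to 71.1 CPM in resistant WM983A, where the cadherin CDH1 was at 60.0 CPM. The 5 fibroblast markers reached 78.8 CPM in the sensitive libraries and 1372 CPM in resistant WM902B, where COL1A1 stood at 1235 CPM. Immune and endothelial markers summed to 5.27 CPM at most, and the 4 keratinocyte markers to 17.7 to 86.9 CPM, nearly all from KRT10. The part of these differences in the results below was not tested, and some results are also given without WM983A.

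BRAF, the kinase that encorafenib targets, was far higher in resistant WM1617 than in any other library. Its gene (ENSG00000157764) lies on the minus strand of chromosome 7 at 140719327 to 140924929 in GRCh38. In the sensitive lines its level was 40.0 CPM in WM983A, 39.3 CPM in WM983B, 46.1 CPM in WM278, 41.0 CPM in WM1617 and 29.5 CPM in WM902B. In the resistant lines, in the same order, it was 17.5, 64.2, 42.6, 356 and 40.1 CPM. The sensitive lines thus spanned 1.55-fold, and the resistant lines held both the lowest and the highest BRAF level of the 10 libraries.

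In WM1617 the expected count of BRAF went from 574 to 6216, a log2 ratio of 3.09 for resistant over sensitive, or 8.50-fold, with a 95% counting interval of 2.96 to 3.21. Intervals of this kind cover counting error only and take no account of differences between cultures. In resistant WM983A the BRAF ratio was -1.15 (-1.37 to -0.93), a level 2.22-fold lower than in the sensitive line. The ratios were 0.69 in WM983B, 0.43 in WM902B and -0.11 in WM278, the last with an interval from -0.26 to 0.04 that includes 0. No resistant line shared the size of the difference in WM1617.

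**Figure D1:**
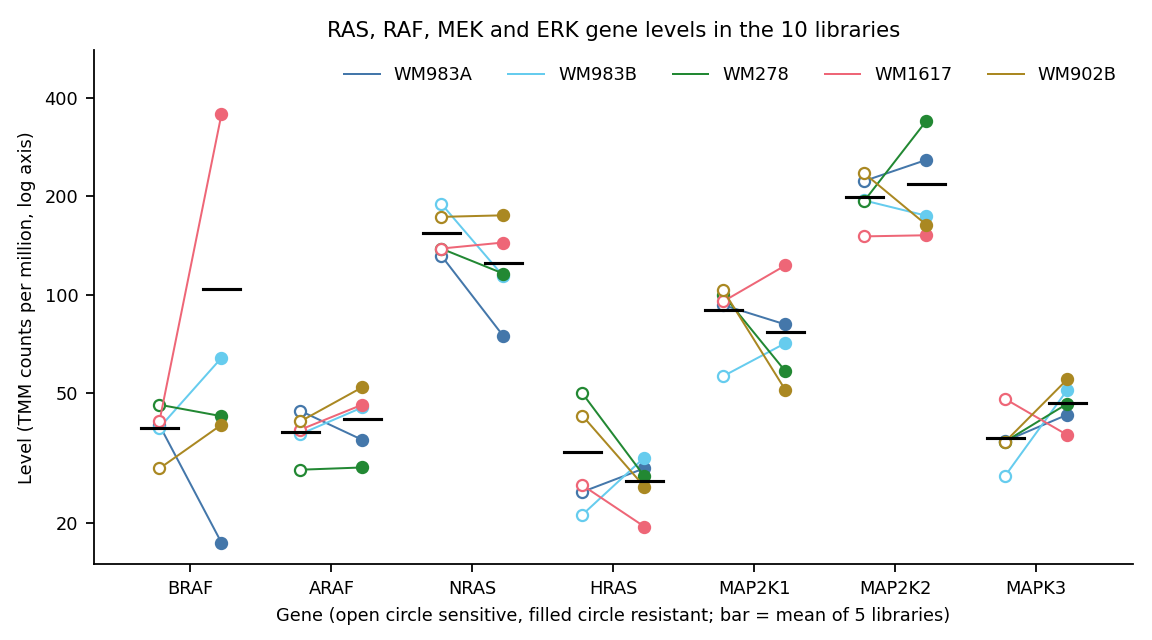
Level of the 7 genes in each library, in CPM on a log axis, with open circles for sensitive and filled circles for resistant libraries, a coloured line per cell line and a black bar for the mean of 5 libraries. BRAF in resistant WM1617, at 356 CPM, stands apart from the other BRAF values, which lie between 17.5 and 64.2 CPM.

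Taken over the 5 lines, the BRAF difference was not called. The mean level was 39.2 ± 6.07 CPM in sensitive and 104 ± 142 CPM in resistant libraries (SD, n = 5 each), so that the spread among resistant libraries exceeded their mean. In edgeR's quasi-likelihood test of 5 resistant against 5 sensitive libraries, the log2 fold change for BRAF came to 1.41 (SE 0.71), with an adjusted p = 0.72. An exact permutation test of the mean log2 levels gave a difference of 0.59 (two-sided p = 0.58, n = 5 each). The edgeR fold change without the block depended on WM1617: it was 0.08 without that line and 1.69 without WM983A. The p-values measure the spread between lines, or with the block the spread of the differences within lines. Lines served as the replicates.

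The genes beside BRAF on the chromosome were compared in the same way, as a description without a test. The nearest gene past the filter at higher coordinates, MRPS33 (141002610 to 141015228), encodes a mitochondrial ribosomal protein and has a start of its own. MRPS33 went from 37.7 to 349 CPM in WM1617, a log2 ratio of 3.17, close to that of BRAF. Its ratio lay between -0.24 and 0.34 in the other 4 lines. By start position, the nearest gene at lower coordinates was NDUFB2-AS1 (140695336 to 140697077), with a ratio of 0.81 in WM1617. NDUFB2, which starts farther away, reaches into BRAF. The ratios of BRAF and MRPS33 in WM1617 thus exceeded that of NDUFB2-AS1, which was itself above 0. Over all genes the median ratio in WM1617 was -0.005. Among its 10 nearest genes, the median ratio in WM1617 was 0.72 for the 5 genes at lower coordinates and 2.15 for the 5 at higher coordinates. In the other 4 lines the medians of these sides lay between -0.62 and 0.55.

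The extent of the stretch was described after these values were seen, and the genes named in it were chosen then. Of the 8 tested genes that start between 0.28 and 1.19 Mb from BRAF towards higher coordinates, 7 were at least 2-fold higher in resistant WM1617, with a median log2 ratio of 2.07. Of the next 12, from 1.39 to 3.13 Mb, 6 were at least 2-fold higher, with a median of 1.10. Across all genes tested, 1.08% were at least 2-fold higher in this line. None of the 76 genes from 3.73 Mb to the end of the chromosome was 2-fold higher, and their median was -0.42. Towards lower coordinates, 2 of the 10 genes at -0.94 to -0.02 Mb were 2-fold higher, with a median of 0.72. So were 3 of the 21 genes at -4.79 to -1.16 Mb, with a median of 0.38. At -19.8 to -5.04 Mb, 6 of 94 genes were 2-fold higher, with a median of 0.33. At -141 to -22.5 Mb, 5 of 655 genes were, with a median of -0.16.

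The genes of the stretch have unlike functions. TMEM178B, which encodes a membrane protein, had a log2 ratio of 2.78 in WM1617, and AGK, a mitochondrial lipid kinase, had 2.15. SSBP1, the single-stranded DNA binding protein of mitochondria, had 2.39. Farther out, GSTK1, a glutathione transferase, had 1.80, CASP2, a caspase, 1.48, and ZYX, which encodes the focal adhesion protein zyxin, 1.31. By the WM1617 ratio, BRAF ranked 4 and MRPS33 ranked 3 among the 17287 genes, and 6 of the 20 highest genes were BRAF or genes within 1.2 Mb of it towards higher coordinates. In the other 4 lines, the median of the 8 genes nearest on that side lay between -0.46 and 0.15. Single genes there did move in other lines, as TMEM178B did in WM983B, with a ratio of 6.63. Whether the BRAF gene was present in more copies in resistant WM1617 was not tested, since DNA was not analysed here.

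**Figure D2:**
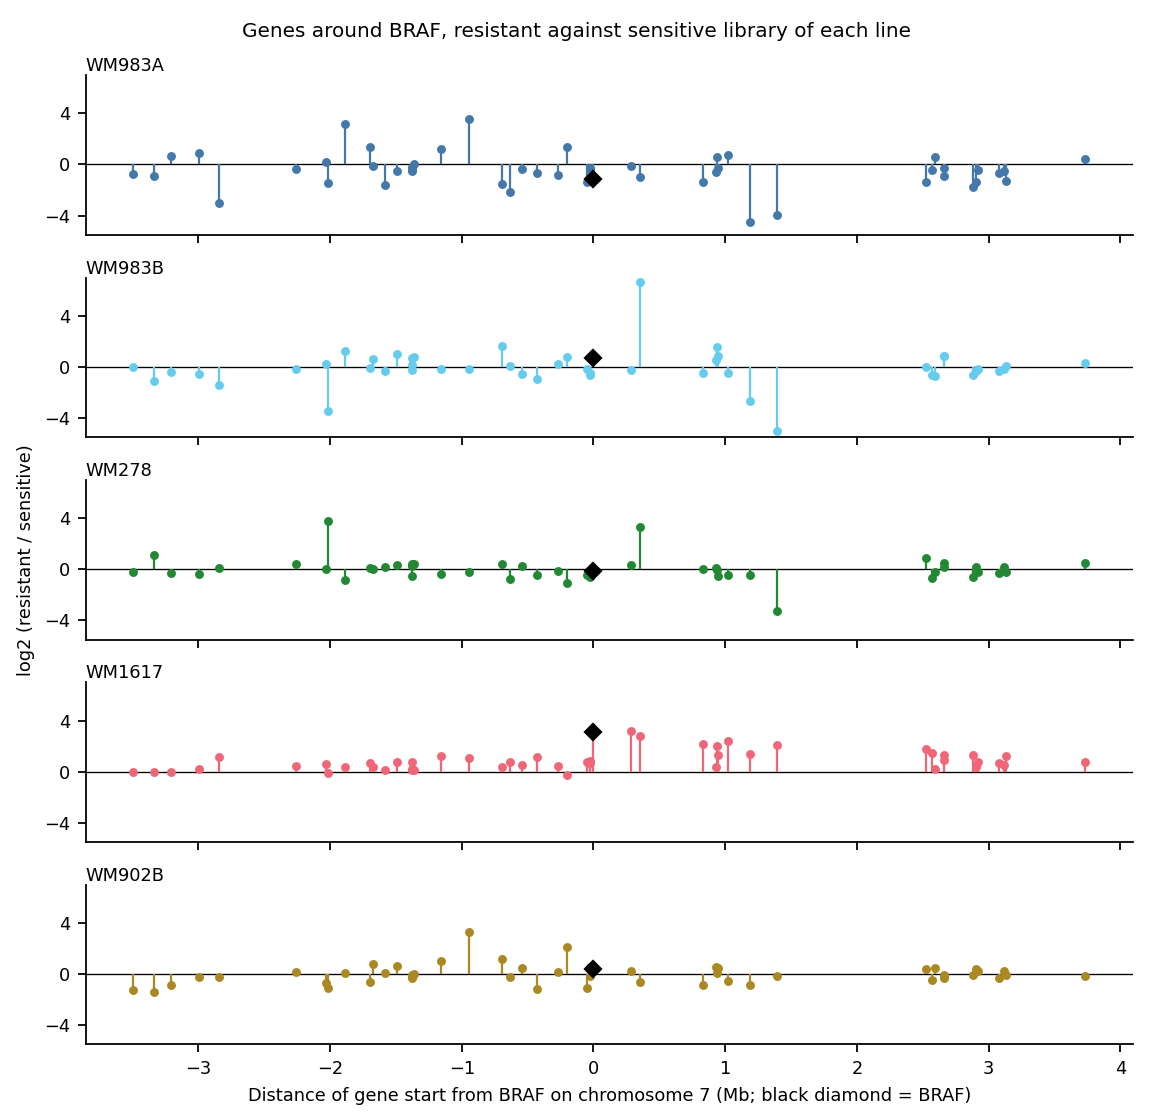
Resistant over sensitive library, as log2 ratios, for tested genes around BRAF on chromosome 7, by distance of the gene start from that of BRAF in Mb, 1 panel per line, with BRAF as a black diamond. In WM1617 the genes from BRAF to 3.13 Mb towards higher coordinates lie above 0, from 0.24 to 3.17, and the other panels show no such run.

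In resistant WM983A, where BRAF was lower, the 10 nearest genes had a median ratio of -0.47, between -1.41 and 1.37. MRPS33 there had a ratio of -0.16 and NDUFB2-AS1 of -0.31. In that line 29.4% of all genes differed at least 2-fold in either direction, against 2.62% in WM1617. The annotated 3' end of BRAF overlaps the end of NDUFB2, a respiratory chain gene on the opposite strand, and the sources used here do not state whether counting used strand. NDUFB2 had a ratio of 0.72 in WM1617.

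ARAF, the X-linked RAF kinase (ENSG00000078061, plus strand, 47561205 to 47571908), differed least between lines and states. Its levels in the sensitive lines were 44.2 CPM in WM983A, 37.5 CPM in WM983B, 29.2 CPM in WM278, 38.7 CPM in WM1617 and 41.0 CPM in WM902B. In the resistant lines they were 36.0, 45.3, 29.7, 46.2 and 52.2 CPM in the same order. The log2 ratios ran from -0.29 in WM983A to 0.34 in WM902B, and both groups overlapped. The standard deviation of ARAF over all 10 libraries was 0.26 on the log2 scale, and 7.86% of genes had a smaller one. For BRAF it was 1.11, with 86.1% of genes below it. The median over all genes was 0.51, and 6 of the 7 genes lay under it.

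NRAS, the RAS gene most often mutated in melanoma (ENSG00000213281, chromosome 1, minus strand, 114704469 to 114716771), was lower in both resistant lines of the WM983 patient. Its level was 132 CPM in sensitive and 74.8 CPM in resistant WM983A, and 190 CPM in sensitive and 114 CPM in resistant WM983B. It was 138 and 116 CPM in WM278, 139 and 145 CPM in WM1617, and 173 and 175 CPM in WM902B. The ratios were -0.81 in WM983A, -0.73 in WM983B and -0.25 in WM278, while those of WM1617 (0.06) and WM902B (0.02) had counting intervals that included 0. The 10 nearest genes had a median of -0.80 in WM983A, within a range of -3.11 to 5.31, and a median of -0.40 in WM983B, within a range of -1.56 to 1.298.

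HRAS (ENSG00000174775, chromosome 11, minus strand, 532242 to 537321) varied most among the sensitive lines, by 2.29-fold. Its level was 24.98 CPM in sensitive and 29.5 CPM in resistant WM983A, and 21.3 and 31.8 CPM in WM983B. In the other lines it was lower in the resistant library, at 50.03 and 27.9 CPM in WM278, 26.2 and 19.6 CPM in WM1617, and 42.7 and 25.9 CPM in WM902B. The resistant lines lay closer together than the sensitive ones, with standard deviations of 0.26 and 0.52 on the log2 scale. In WM983B, where HRAS had a ratio of 0.56, its 10 nearest genes had a median of 1.53 and 8 of them were at least 2-fold higher. In WM983A, where HRAS had 0.23, their median was 1.01 and 5 were at least 2-fold higher. Of all 17287 genes, 2047 were so in WM983B and 2374 in WM983A. The medians in the remaining lines lay between -0.14 (WM1617) and 0.38 (WM278).

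MAP2K1, which encodes MEK1 (ENSG00000169032, chromosome 15, plus strand, 66386837 to 66491656), had ratios of opposite sign in the primary and the metastatic lines. In the sensitive lines it stood at 93.1 CPM in WM983A, 56.4 CPM in WM983B, 99.97 CPM in WM278, 95.5 CPM in WM1617 and 103 CPM in WM902B. The WM983B level lay far below the other sensitive ones. The resistant libraries held 81.2, 71.2, 58.4, 123 and 51.2 CPM. The ratio was below 0 in the 3 lines of primary origin, at -0.19 in WM983A, -0.76 in WM278 and -0.997 in WM902B. It was above 0 in the 2 lines of metastatic origin, at 0.33 in WM983B and 0.36 in WM1617. A full split by origin, in either direction, occurred in 4.57% of all genes tested, and the difference between origins was not tested. The ratio of WM902B was the nearest to a 2-fold difference among the pairs of a gene and a line that did not reach it.

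MAP2K2, which encodes MEK2 (ENSG00000126934, chromosome 19, minus strand, 4090321 to 4124122), was at 223, 194, 194, 151 and 235 CPM in sensitive WM983A, WM983B, WM278, WM1617 and WM902B. The resistant libraries had 259, 175, 340, 152 and 164 CPM. WM278 stood out, with a ratio of 0.81, and WM902B had -0.52. Both MEK genes were lower in resistant WM902B, whereas in WM278 MAP2K1 was lower and MAP2K2 higher.

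MAPK3, which encodes ERK1 (ENSG00000102882, chromosome 16, minus strand, 30114105 to 30123506), was higher in 4 of the 5 resistant lines. Its levels were 35.7, 28.0, 35.6, 48.1 and 35.6 CPM in sensitive WM983A, WM983B, WM278, WM1617 and WM902B. In the resistant libraries they were 43.0, 51.2, 46.5, 37.3 and 55.2 CPM. The ratios were 0.26, 0.85, 0.37 and 0.62 in WM983A, WM983B, WM278 and WM902B, against -0.36 in WM1617, and the groups overlapped through the 2 WM1617 libraries. The exact permutation test of mean log2 levels, with a difference of 0.35, gave p = 0.056 (two-sided, n = 5 each). Without WM1617, the only line with a ratio below 0, the difference was 0.53 and the groups no longer overlapped. Leaving out the line of opposite sign favours this, and how many of all genes separate without WM1617 was not counted. Such a separation by itself fixes the exact p at 0.029, the smallest value that 4 against 4 libraries allow. That p therefore says no more than that the groups separate. In edgeR without WM1617, 12.6% of all genes had an unadjusted p of at most 0.05. With each of the other lines left out the exact p was 0.086 to 0.20, and the exact sign-flip test that pairs the libraries of a line gave p = 0.19 over the 5 lines.

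**Figure D3:**
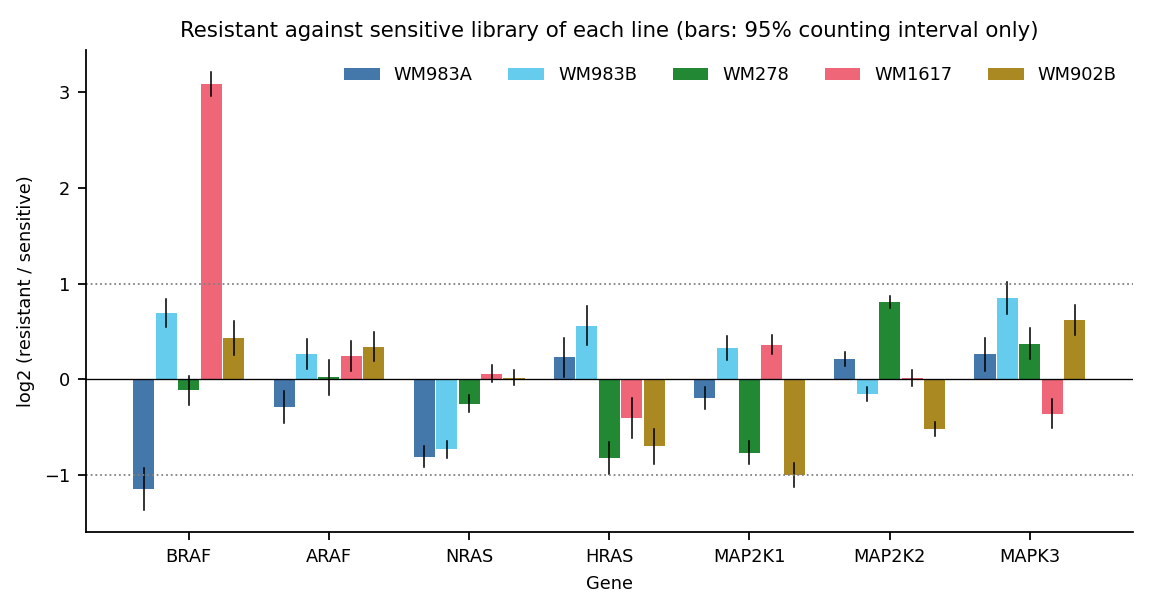
Resistant over sensitive library, as log2 ratios, for each gene and line, with black bars for the 95% counting interval and dotted lines at a 2-fold difference. BRAF passes the upper line in WM1617 (3.09) and the lower line in WM983A (-1.15), and MAP2K1 in WM902B ends just short of it at -0.997.

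Of the 7 genes, 0 were called at an adjusted p of at most 0.05 with a 2-fold change in edgeR's quasi-likelihood test, as were 0.0% of all genes tested. At an unadjusted p of at most 0.05 there were also 0 of the 7, against 7.14% of all genes. DESeq2's Wald test called 0 of the 7 after adjustment and 2-fold, against 0.619% of all genes, and put 1, BRAF, at an unadjusted p of 0.044, where 8.5% of all genes had a p of at most 0.05. After BRAF, MAPK3 had the largest log2 fold change, 0.35 (SE 0.20), with an adjusted p = 0.76 in edgeR. The log2 fold changes were -0.31 for NRAS, -0.29 for HRAS, -0.22 for MAP2K1, 0.13 for ARAF and 0.13 for MAP2K2, with adjusted p between 0.82 and 0.95 in the same edgeR test. The median size over the 7 genes was 0.29, beside 0.30 over all genes. In none of the 7 did the resistant and sensitive libraries separate without overlap, which 0.758% of all genes did.

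Of the 35 pairs of a gene and a line, 2 differed at least 2-fold, both of them BRAF. The lines themselves differed widely in how much changed: at least 2-fold differences were found for 29.4% of all genes in WM983A, for 20.2% to 20.3% in WM902B and WM983B, for 12.5% in WM278 and for 2.62% in WM1617. In WM1617, where the median size of the log2 ratio was 0.21 over all genes, it was 0.36 over the 7. In WM983A it was 0.60 over all genes and 0.26 over the 7. BRAF in WM1617 was therefore a large difference in the line whose resistant library departed least from its sensitive one.

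Ratios of 2 related genes within a library do not depend on the scaling between libraries. BRAF to ARAF was 0.72 to 1.58 in the sensitive libraries, by counts. In resistant WM1617 it was 7.70. The other resistant libraries had 0.49 (WM983A), 0.77 (WM902B), 1.42 (WM983B) and 1.43 (WM278). The count of NRAS was 2.77 to 8.90 times that of HRAS in the sensitive libraries, and 2.53 times in resistant WM983A, 3.58 times in resistant WM983B, and 4.16, 6.73 and 7.37 times in resistant WM278, WM902B and WM1617. The ratio was lower in both resistant WM983 lines than in their sensitive lines and was higher in the other 3 resistant lines. MAP2K1 to MAP2K2 was 0.29 to 0.63 in the sensitive libraries and reached its lowest value, 0.17, in resistant WM278 and its highest, 0.81, in resistant WM1617.

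Between the states, the mean log2 ratio differed by 0.47 for BRAF to ARAF, -0.11 for NRAS to HRAS and -0.33 for MAP2K1 to MAP2K2. The exact permutation tests gave p = 0.65, 0.79 and 0.47, and all 3 were 0.79 after Benjamini-Hochberg adjustment over the 3 ratios.

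**Figure D4:**
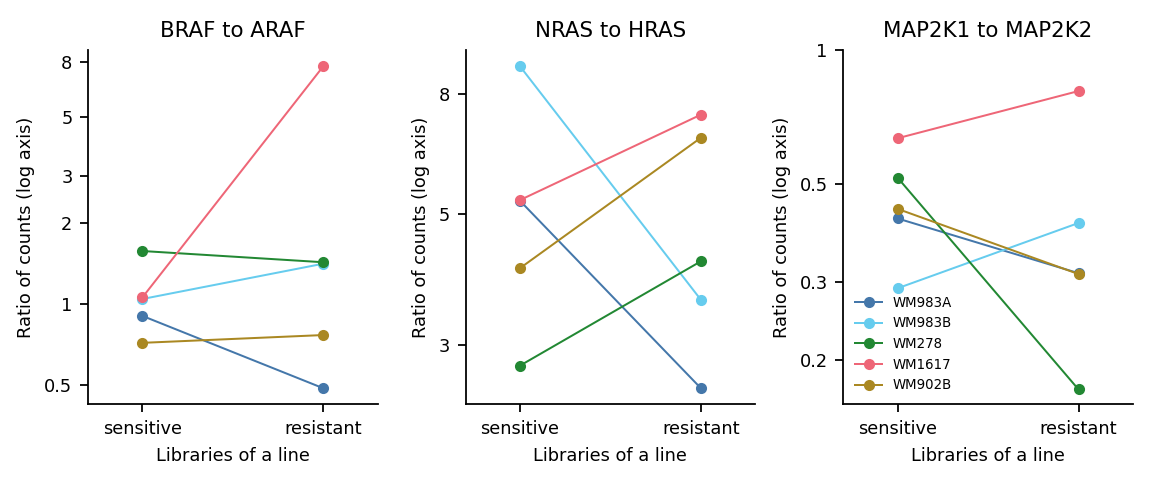
Ratio of the expected counts of 2 related genes within each library, on log axes, with a line joining the sensitive and the resistant library of each cell line. BRAF to ARAF reaches 7.70 in resistant WM1617, while NRAS to HRAS and MAP2K1 to MAP2K2 move in both directions.

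Per kilobase of exon, which allows levels of different genes to be compared, BRAF had the lowest mean in the sensitive libraries, 1.67 ± 0.26 CPM per kb (SD, n = 5). NRAS had 35.7 ± 5.92 and MAP2K2 25.7 ± 4.20 CPM per kb. Between them and BRAF came MAP2K1 with 13.9 ± 2.94, HRAS with 13.6 ± 5.18, ARAF with 11.2 ± 1.64 and MAPK3 with 9.97 ± 1.97 CPM per kb. Neighbours in the order from MAP2K1 to MAPK3 differed by less than their spread. These lengths are unions of all exons of GENCODE release 44, 23433 bases for BRAF. With the longest transcript, of 9807 bases, BRAF had 3.99 CPM per kb and was still the lowest, but MAP2K2, at 57.1, then exceeded NRAS. In resistant WM1617 BRAF stood at 15.2 CPM per kb of exon union, above ARAF (13.5), MAPK3 (10.2) and HRAS (8.05) in that library. With the longest transcript it stood at 36.3 CPM per kb there, above NRAS (33.4) and MAP2K1 (25.3) as well and below MAP2K2 (43.6).

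Within a patient, the metastatic and primary lines were alike in BRAF before resistance. The log2 difference of metastatic WM983B from primary WM983A was -0.03 in the sensitive and 1.82 in the resistant libraries. That of WM1617 from WM278 was -0.17 in the sensitive and 3.03 in the resistant ones. MAP2K1 differed by -0.71 between sensitive WM983B and WM983A and by -0.07 between sensitive WM1617 and WM278. HRAS in sensitive WM1617 differed from that in sensitive WM278 by -0.91 on the log2 scale, and NRAS was higher in sensitive WM983B than in WM983A, by 0.52.

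The genes most like each of the 7 were sought by Pearson's r of log2 levels over the 10 libraries, among 11372 genes with a mean log2 level of at least 3. Such r values are descriptions, since the libraries share lines and patients. For BRAF they were LUC7L2 (r = 0.90), AGK (0.88) and OSBP (0.87). LUC7L2 and AGK lie on chromosome 7 with it. Without resistant WM1617, r over the other 9 libraries was 0.84 for LUC7L2, 0.50 for AGK and 0.39 for OSBP. For ARAF they were PRPF38B, CTD-2562J17.6 and UBR4 (r = 0.91 to 0.94), and for NRAS they were UROD, ST13P15 and MAP3K6 (0.94 each). For HRAS they were RP11-438J1.1, SMAGP and PHRF1 (0.89 to 0.93), of which PHRF1 lies on chromosome 11 as HRAS does. For MAP2K1 they were GATAD2A, YARS and AP3D1 (0.91 to 0.93), for MAP2K2 ZNRF3, MID1 and PLK2 (0.87 to 0.90), and for MAPK3 AHSA2, HCFC1R1 and EME2 (0.88 to 0.93). UROD and MAP3K6 share chromosome 1 with NRAS, and HCFC1R1 and EME2 share chromosome 16 with MAPK3.

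Among 53 other genes of the cascade, 50 passed the filter and 0 were called at an adjusted p of at most 0.05 with a 2-fold change in edgeR. At an unadjusted p of at most 0.05, 4 of the 50 were at least 2-fold higher and 1 was at least 2-fold lower, against 3.53% and 0.885% of all genes. DESeq2's Wald test called 0 of them, against 0.619% of all genes. With cell line as a block the number at an unadjusted p and 2-fold was 8 rather than 5, and the share of all genes was 5.53% rather than 4.42%. By role, without the block, 1 of 4 other RAS genes and 1 of 6 tested exchange factors for RAS were higher. So were 2 of 7 tested RAF kinases and regulators, and 1 of 10 ERK output genes was lower. With the block, the 8 were RRAS, KSR1 and MAP3K8, all higher, and the output genes SPRY2, DUSP4, DUSP6, ETV4 and ETV5, all lower. The log2 fold changes of these output genes then ran from -2.60 (ETV4) to -1.41 (SPRY2), and none was called after adjustment. No adaptor, RAS GTPase-activating protein, MEK or ERK scaffold, or ERK substrate met both limits in either fit.

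MAP3K8, a kinase also called COT or TPL2 that phosphorylates MEK without RAF, was higher in every resistant line but WM1617. Its level went from 1.04 to 7.43 CPM in WM983A, from 1.08 to 6.50 CPM in WM983B, from 0.82 to 12.5 CPM in WM278 and from 0.92 to 13.3 CPM in WM902B, and from 5.56 to 3.12 CPM in WM1617. Sensitive WM1617 thus held the highest level of the sensitive lines. Its log2 fold change in edgeR was 2.18 (SE 0.65), with an adjusted p = 0.63 and an unadjusted p = 0.0070, and 3.35 without WM1617. KSR1, a scaffold that holds RAF and MEK together, showed the same division. It had log2 ratios of 3.04 in WM278, 2.30 in WM902B, 1.57 in WM983B and 1.304 in WM983A, against -0.69 in WM1617. The edgeR estimate was 2.05 (SE 0.57), at an adjusted p = 0.63.

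RRAS, a RAS relative linked to integrin adhesion, had ratios of 2.27 in WM983B, 1.73 in WM902B, 1.43 in WM278 and 0.57 in WM983A, and -0.11 in WM1617, and edgeR gave it 1.43 (adjusted p = 0.69). RASGRF2, an exchange factor that loads RAS with GTP, went from 1.297 to 18.7 CPM in WM983A and from 0.71 to 4.76 CPM in WM902B. It stayed within 0.14 on the log2 scale in the other lines. Its log2 fold change in edgeR was 2.33 (adjusted p = 0.69), and 1.01 without WM983A. The test of 5 against 5 libraries does not compare WM1617 with the other lines, and that difference was not tested.

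ERK output genes are transcripts that ERK activity raises, among them phosphatases and Sprouty proteins that act back on the cascade. In the list of 10 such genes, DUSP4, DUSP6, SPRY2, SPRY4, ETV4 and ETV5 were below their sensitive level in each of the other 4 resistant lines, and in WM1617 their log2 ratios lay between -0.45 and 0.29. At least 2-fold lower were 6 of the 10 in WM983A, 4 in WM983B, 8 in WM278 and 7 in WM902B, but 0 in WM1617. The corresponding shares of all genes were 15.7%, 8.47%, 4.96%, 8.94% and 1.54%. The median log2 ratio was -1.42, -0.30, -1.50 and -2.49 in the 4 lines and -0.13 in WM1617.

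DUSP6, the ERK phosphatase, went from 185 to 14.7 CPM in WM983A, from 162 to 48.4 CPM in WM983B, from 244 to 115 CPM in WM278 and from 124 to 7.24 CPM in WM902B. In WM1617 it was 213 CPM in the sensitive and 172 CPM in the resistant library. ETV4, a transcription factor of the ETS family, had ratios between -4.93 and -1.92 in the 4 lines and -0.35 in WM1617. Its relative ETV5 had -0.45 in WM1617 and -3.17 to -0.24 elsewhere. SPRY2 and SPRY4, inhibitors of receptor signalling, had 0.29 and 0.08 in WM1617, and SPRY2 lay between -3.60 and -0.74 and SPRY4 between -4.78 and -0.35 in the other lines. Most genes of resistant WM1617 lay near their level in the sensitive line, with a median size of the log2 ratio of 0.21 over all genes.

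DUSP4, another phosphatase of the family, was below its sensitive level in all 5 lines, with ratios of -2.51 to -0.40 and edgeR put the change at -1.24 (SE 0.51), with an adjusted p = 0.69. The remaining output genes divided the lines differently. CCND1, which encodes cyclin D1, had 1.72 in WM983A and 0.80 in WM1617 but -2.46 in WM902B. The receptor gene EPHA2 had 2.93 in WM983A, 1.94 in WM902B and 1.35 in WM983B, -1.33 in WM278 and -0.25 in WM1617. EPHA4 had 2.19 in WM902B and -1.66 in WM278, and PHLDA1 lay between -1.22 and 0.07. The list was not independent of these libraries, because it was drawn up with earlier results of them known.

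**Figure D5:**
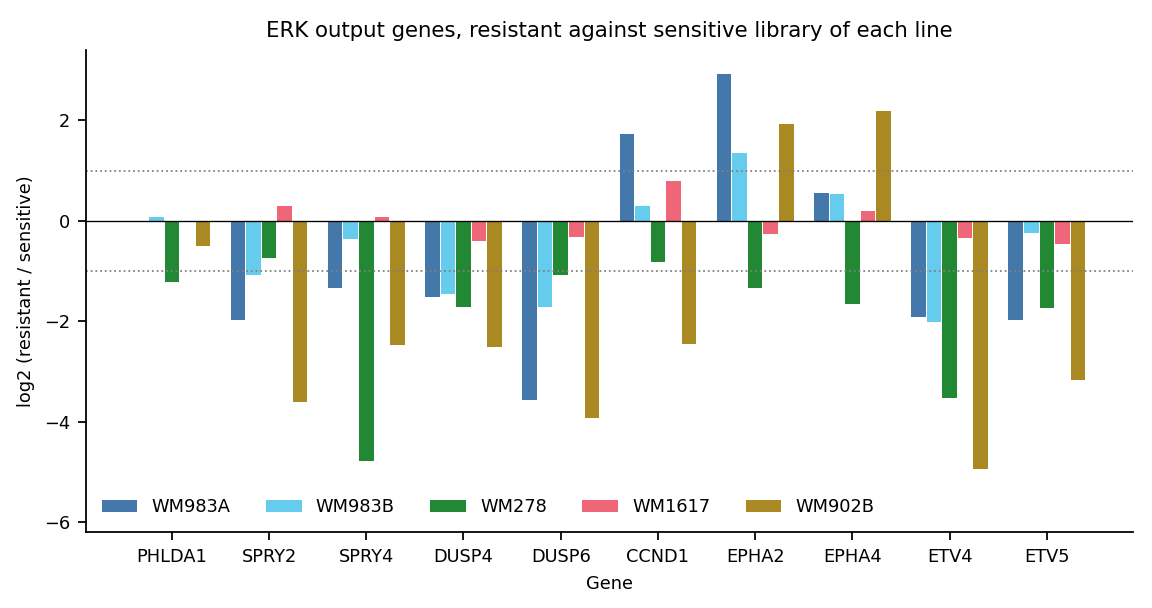
Resistant over sensitive library, as log2 ratios, for the 10 ERK output genes in each line, with dotted lines at a 2-fold difference. The WM1617 bars stay between -0.45 and 0.80, while DUSP6 and ETV4 pass -1 in each of the other 4 lines.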

How the data were processed

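mRNA was selected with oligo-dT and sequenced as single-end reads of 75 cycles. According to the paper's methods, the authors aligned reads to GRCh38 by HISAT2 and ran statistics in StrandNGS. The program that counted reads per gene, versions, annotation, strand setting and the treatment of reads shared by several genes are not given in the sources used here. The raw values deposited are expected counts with fractions, 24.0% of those above 0 being exactly whole, with no tolerance. The normalized values deposited are log2 ratios to the sensitive library of the same line, after DESeq size factors, and served as an alternative. In the sensitive WM983B library 455 raw values held as dates were recovered from these ratios, and all 455 matched the visible digits within 0.001%. Libraries held 13693922 to 18033247 counts, and the 7 genes had 228 to 6216 counts each.

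Expected counts were rounded, filtered with filterByExpr by condition, normalized by TMM and tested with edgeR 4.0.16 (quasi-likelihood, two-sided, Benjamini-Hochberg over 17287 genes) in R 4.3.3, 5 resistant against 5 sensitive libraries. DESeq2 1.42.0 and limma 3.58.1 were alternatives. These steps were tested on simulated data, where a pass was required only at a spread set low, not at the spread of these libraries. Ratios within a line used CPM with 1 added. Permutation tests were exact. Positions came from GENCODE 44, which held 56911 of the 57955 gene identifiers. Copies named after a gene held few counts (MAP2K1P1 54 to 126, BRAFP1 0 to 19).

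Libraries of the same name come from the same cell line, so they are paired by design. Deviations from the group means correlated within lines at -0.08 to 0.67, with WM983A lowest. The 7 genes, the gene lists and the tests were chosen with earlier results of these data known. Named are the 7 genes, the 10 ERK output genes, other cascade genes at an unadjusted p of at most 0.05 and 2-fold, the 3 genes most like each of the 7, and the nearest tested genes on each side of a gene that differed 2-fold in a line. Other genes the rule covers are not reported here.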

Additional observations from a re-analysis of the deposited data

Results flagged for a closer look

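By a test for a stray value among 5 samples, 2 of 44 groups of values had a sample far from the rest. The test flags about 1 in 20 groups by chance, a rate that concerns the number of groups and judges neither value. The gap to the nearest value was 0.86 of the range for BRAF and 0.78 for MAP2K1, against a limit of 0.71. BRAF in resistant WM1617, at 356 CPM, was far above the other resistant libraries. MAP2K1 in sensitive WM983B, at 56.4 CPM, was far below the other sensitive libraries.

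Of 24 genes compared, MAP2K1 was the 1 whose log2 ratio was below 0 in every line of primary origin and above 0 in every line of metastatic origin, with means of -0.65 and 0.35. A full split by origin, in either direction, occurred in 4.57% of all 17287 genes tested. The difference between origins was not tested.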

How the results depend on the processing

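With 1 library per line and state, a value within a line has no replicate, and lines of the same patient are not independent. Calls among the 7 genes and the other cascade genes, at an adjusted p of at most 0.05 and 2-fold, were 0 under every alternative. The alternatives were DESeq2's size factors, both other filters, DESeq2, limma, the cell line block, lines of the same patient summed, and each line left out. Over all genes tested, each alternative also called 0, except DESeq2 with 107, or 0.619%. Outside DESeq2 the 0 therefore does not set these genes apart from the rest. The number of the 7 at an unadjusted p of at most 0.05 was 1 with DESeq2 and 0 to 1 with a line left out (BRAF without WM983A, MAPK3 without WM1617). Shares of all genes at such a p were 8.5% with DESeq2, 4.87% without WM983A and 12.6% without WM1617. For the other cascade genes at such a p and 2-fold the number was 8 with the cell line block, under which no call changed. With a line left out it was 2 to 10. The lowest number came without WM902B and the highest without WM1617, where the shares of all genes were 2.42% and 8.57%.

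The 2 pairs at 2-fold were 1 or 2 with a line left out, and 3 with 0.25 added or in the deposited ratios, where MAP2K1 in WM902B passed. Lines left out gave exact permutation differences of -0.034 to 1.02 for BRAF, -0.11 to 0.22 for MAP2K2 and 0.22 to 0.53 for MAPK3, and of -0.13 to 0.81 for BRAF to ARAF and -0.33 to 0.19 for NRAS to HRAS. In edgeR, MAP2K2 had a log2 fold change of -0.043 with patients summed and -0.10 to 0.29 with lines left out. CCND1 had -1.15 to 0.30, EPHA2 -0.28 to 2.10 and EPHA4 -1.15 to 1.79 with lines left out, and EPHA4 0.36 in limma, 0.63 with the block and 0.43 with patients summed.

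With the longest transcript, sensitive means were 3.99 CPM per kb for BRAF, 16.04 for ARAF, 18.4 for MAP2K1, 57.1 for MAP2K2 and 14.3 for MAPK3, and resistant means 10.6 for BRAF, 17.6 for ARAF, 13.9 for HRAS, 62.4 for MAP2K2 and 18.2 for MAPK3. Lengths alone cause these moves. Medians of neighbouring genes moved by less than their spread with 20 genes. The count of genes higher beside BRAF in WM1617 and of lower output genes moved by less than 1.5 times under alternatives added after the data were seen.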
